A study of Mus musculus with 8 samples.

Results

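The probes described here are those of the chromosome 12 flanks of the imprinted Dlk1 to Dio3 domain, the stretches of chromosome on either side of the domain that holds the deleted miR-379/miR-410 microRNA cluster. They were chosen by position alone, as non-control array probes placed on mm9 chromosome 12 from 104 to 110.69 Mb (the Dlk1 side) or from 111.53 to 118 Mb (the Dio3 side). The rule found 505 probes among 55681 on the array, 190 on the Dlk1 side and 315 on the Dio3 side. Of these, 284 (112 and 172) gave signal well above background on 4 or more of the 8 arrays and were tested with the 33752 probes of the array that passed the same filter. The 284 probes carry 223 names, of which 126 are RefSeq gene symbols.

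Liver RNA of 4 wild-type pups and 4 littermates (called knockout here) was compared, each on its own single-colour Agilent array. The knockout pups had inherited from the mother a chromosome without the microRNA cluster. All pups were C57BL/6J by label, were taken by caesarean at E19.5 and were killed 4 h later. The labels give the sample as a piece of the large lobe, with no sorting of cells, so fewer cells of a type and less RNA per cell cannot be told apart. The limits of the deletion, the cell line it was made in and the number of backcrosses are not given in the sources used here.

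The Dlk1 to Dio3 domain is imprinted: protein-coding genes such as Dlk1 are expressed from the chromosome received from the father, and the noncoding RNAs Meg3, Rian and Mirg, with their microRNAs, from the chromosome received from the mother. Mirg is the host transcript of the miR-379/miR-410 cluster. The flanks lie outside the imprinted domain and hold unrelated genes, among them the clade A serpins, a cluster of secreted protease inhibitors and hormone carriers made in hepatocytes, and the immunoglobulin heavy-chain locus, whose variable segments are joined to the constant regions in B lymphocytes. Genes next to a deletion are a usual check of whether a deletion touches more than its target.

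Probes of variable segments carried some of the largest differences of the Dio3-side flank. Shown are 3 pairs of them, with the longest exact run that each pair shares in capitals. Bases in lower case can match too. All 6 are 60-base probes placed by the array files on the minus strand of mm9. They are named by the Ensembl transcript that the file gives, and the sequences come from the deposited array files, written 5′ to 3′.
ENSMUST00000103523, chr12:116396734-116396793: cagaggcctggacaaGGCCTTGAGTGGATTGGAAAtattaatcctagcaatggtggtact
ENSMUST00000170551, chr12:117100209-117100268: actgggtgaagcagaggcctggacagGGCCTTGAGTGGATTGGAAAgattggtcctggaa
ENSMUST00000103547, chr12:117150626-117150685: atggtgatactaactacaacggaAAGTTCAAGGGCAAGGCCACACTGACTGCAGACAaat
ENSMUST00000103550, chr12:117202095-117202154: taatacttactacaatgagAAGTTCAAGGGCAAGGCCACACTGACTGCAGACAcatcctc
ENSMUST00000103537, chr12:116831501-116831560: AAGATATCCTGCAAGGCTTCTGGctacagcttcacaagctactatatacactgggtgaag
ENSMUST00000103515, chr12:116153003-116153062: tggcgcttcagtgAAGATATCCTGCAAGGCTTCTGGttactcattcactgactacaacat
The longest shared runs are 20, 34 and 23 bases long in the order shown. A transcript of another segment with the same run can therefore bind in part, and the values below belong to a probe rather than to 1 segment.

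Clear signal over background was found for 58.6% to 66.2% of the spots, depending on the array, and no spot was saturated. Levels are given as log2 signal minus the 75th percentile of that array, and differences are knockout minus wild-type on the same log2 scale. The median 95% interval of a flank probe reached 0.30 to either side of its difference. The label was checked against 12 hepatocyte markers, all measured, whose median difference was -0.03 with none past the test. The B lymphocyte list (13 of 13 measured) had a median difference of -0.26 and 1 member called, Ms4a1, at -0.88. Its summed level ran from 5.17 to 6.02 in the wild-type arrays and from 5.38 to 5.56 in the knockout arrays. The pancreas list (14 of 20 measured) had a median difference of -2.10 with none called. Its summed level was 5.08, 4.59, 7.41 and 6.47 in wild-type 1 to 4 and ran from 3.98 to 4.62 in the knockout arrays. Wild-type 3 and 4 were thus the high arrays, and wild-type 2 lay within the knockout range. The skeletal muscle list (9 of 13 measured) had a median difference of -1.41 with 1 called lower, and summed levels from 1.33 to 2.38 and from 0.70 to 0.96. The erythroid list (11 of 13 measured) had a median difference of 0.25, with 10 higher in mean and none called, and summed levels from 10.7 to 11.3 and from 11.1 to 11.2. The macrophage list (11 of 13 measured) had a median difference of -0.09, with 9 lower in mean. The part of these cells in the flank differences was not tested. The arrays of each genotype filled 1 column of a shared slide, so genotype cannot be told apart from slide column. Ddx3y, a Y-linked gene, was at -7.67 in wild-type 3 and between 1.39 and 2.21 in the other wild-type arrays, and at -7.47, -7.45, 2.30 and 1.81 in knockout 1 to 4, so the sexes were not equally spread. Replicate 4 of each group lay nearer to a weighted mean of the other arrays of its group (residual SD 0.27 and 0.22) than any other array of that group did. Counts are therefore also given without both of these arrays, with 3 arrays per group.

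The deletion itself was read from the probes in the Mirg interval, which the probes named Mirg span from position 110979653 to 110987569. Mirg stood at 2.11, 2.24, 2.15 and 2.14 in the wild-type arrays and at -0.20, -0.31, -0.91 and -0.73 in the knockout arrays at its brighter probe. All 17 kept probes of that interval had a lower mean in the knockouts, and their median difference was -1.72. Of the 17, 11 passed the test, where 0.178% of all probes were called lower. Probes below background on every knockout array passed the filter only through the wild-types, which fixed their direction. Among them is a called probe at -6.40, -6.28, -6.35 and -5.91 in the knockout arrays. Within the domain, Dlk1, Meg3 and Dio3 differed by 0.25, 0.43 and 0.10 at their brightest probes, none past the test. Of the 34 kept probes from Meg3 to the Mirg interval, 30 had a higher mean in the knockouts, 17 had an unadjusted p under 0.05 and 1 was called higher, and their median difference was 0.36. Among all probes, 57.6% had a higher mean, 12.7% had such a p and 0.0385% were called higher. Many of the 34 share a transcript or interval with another, so they are not separate observations. Distances below are counted from the Mirg interval. The nearest kept flank probe was 0.71 Mb away on the Dlk1 side and 0.63 Mb away on the Dio3 side.

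Few flank probes passed the test, and a probe that did not pass is not thereby shown to be unchanged. With limma and Benjamini-Hochberg adjustment over all 33752 probes, 3 of the 284 flank probes fell and 1 rose at an adjusted p under 0.05, where 0.178% of all probes fell and 0.0385% rose. In either direction, 1.41% of the flank probes and 0.216% of all probes were called. The probes that fell belong to Ifi27, to Tedc1 and to ENSMUST00000103523, and the probe that rose to ENSMUST00000103547. Each of the ENSMUST probes was above background in 1 group only and passed the filter through that group, so it had to differ, and its call adds nothing to a count against the background. None of them lay within 3 Mb of the Mirg interval. Without replicate 4 of each group, 0 of the 284 passed by limma, against 11 of all 33752 probes (0.0326%). In that fit 45 of the 284 (15.8%) had an unadjusted p under 0.05, against 7.08% of all probes.

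The median difference was 0.01 over both flanks, -0.02 on the Dlk1 side and 0.04 on the Dio3 side, next to 0.03 over all kept probes and 0.07 over the 981 other kept probes of chromosome 12 outside the domain. Over arrays, the median deviation of the flank probes varied with an SD of 0.04 on the Dlk1 side and 0.02 on the Dio3 side. Within 1 Mb of the Mirg interval the median difference was 0.05 (SD over arrays 0.05) on the Dlk1 side and 0.06 (SD over arrays 0.06) on the Dio3 side. At an unadjusted p under 0.05, 51 flank probes (18.0%) differed, against 12.7% of all probes. Of the 51, 21 were lower in the knockouts (5.72% of all probes were) and 30 were higher (6.95% of all probes). The 4 wild-type and 4 knockout values did not overlap for 44 flank probes (15.5%), against 8.57% of all probes. The knockouts were the lower group for 20 of them (3.8% of all probes) and the higher for 24 (4.78% of all probes). Without the probes of the immunoglobulin interval described below, the share at an unadjusted p under 0.05 was 14.2%, or 33 of 232 probes. Without replicate 4 of each group, that share was 10.8% against 7.08% of all probes.

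**Figure D1:**
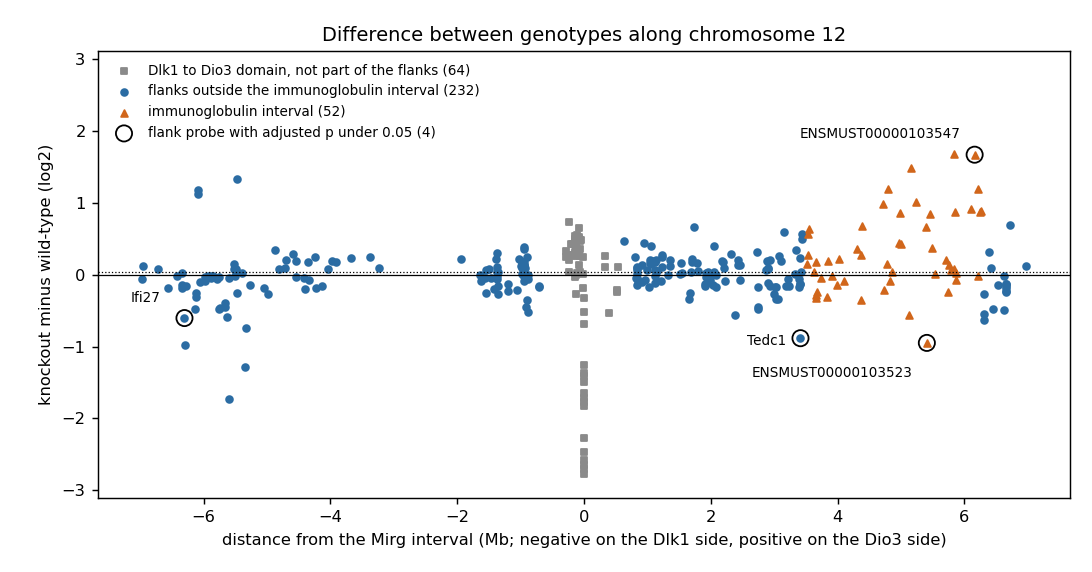
Difference between genotypes (knockout minus wild-type, log2) of every kept probe against its distance from the Mirg interval in Mb, negative on the Dlk1 side. Blue points are flank probes, orange triangles the immunoglobulin interval, grey squares the domain itself, open circles the 4 flank probes past the test, and the dotted line the median of all kept probes, 0.03. The grey column of low values sits at the Mirg interval, and the 4 circled flank probes lie more than 3 Mb away from it.

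The genes nearest to the domain on the Dlk1 side were Begain, Wdr25, Wars, Slc25a47, Slc25a29 and Yy1, all within 1 Mb, and no probe of them passed the test. Begain, which encodes a guanylate kinase-associated protein named for its expression in brain, was at -2.23, -2.18, -1.61 and -1.84 in the wild-type arrays and at -1.99, -1.90, -2.39 and -2.22 in the knockout arrays. The groups overlapped, and the difference was -0.16 (SE 0.17). Wdr25 differed by -0.18 (SE 0.14). Wars, the cytosolic tryptophanyl-tRNA synthetase, was at 3.47 ± 0.15 and 3.46 ± 0.08 (SD, n = 4 each), a difference of -0.01. Yy1, a zinc finger transcription factor, differed by 0.10 (SE 0.11), and its 4 values per group overlapped.

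Slc25a47, a mitochondrial carrier expressed in liver, stood apart among these neighbours. It was at 5.39, 5.13, 5.03 and 5.07 in the wild-type arrays and at 4.54, 4.67, 4.69 and 4.62 in the knockout arrays. Every knockout value was below every wild-type value. The difference of -0.52 (SE 0.09) missed the threshold (limma adjusted p = 0.0887), and without replicate 4 of each group it was -0.55 (adjusted p = 0.533). Slc25a29, another mitochondrial carrier 0.03 Mb farther out, differed by -0.45 (SE 0.17, adjusted p = 0.32), with wild-type values from -0.80 to -0.17 and knockout values from -1.29 to -0.77, so that the groups overlapped. The probes of Wars and Slc25a47 both lie 0.88 Mb from the Mirg interval, and the difference of Wars was near 0. The cause of the Slc25a47 difference was not tested.

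On the Dio3 side the nearest genes were Ppp2r5c, Dync1h1, 1700001K19Rik, Hsp90aa1 and, just beyond 1 Mb, Wdr20. None of the 15 kept probes within 1 Mb had an unadjusted p under 0.05. Ppp2r5c, a regulatory subunit of protein phosphatase 2A, was measured by 3 probes whose differences ran from -0.05 to 0.25. Dync1h1, the heavy chain of cytoplasmic dynein, was at 3.47, 3.36, 3.46 and 3.42 in the wild-type arrays and at 3.29, 3.41, 3.29 and 3.31 in the knockout arrays, a difference of -0.11 (SE 0.07). The groups overlapped through knockout 2.

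Hsp90aa1, the stress-inducible cytosolic HSP90 chaperone, was at 5.21, 5.29, 4.99 and 4.95 in the wild-type arrays and at 5.13, 5.09, 6.10 and 5.89 in the knockout arrays. Knockout 3 and 4 were higher than every wild-type array, and knockout 1 and 2 were within their range. The difference of 0.44 (SE 0.24) did not pass the test (limma adjusted p = 0.469). 1700001K19Rik differed by 0.13 and Wdr20, a WD-repeat protein, by 0.16 at its brightest probe and -0.18 at the other. The kept probe nearest to the domain, of a long intergenic RNA read on the reverse strand, was well above background on 2 wild-type and 4 knockout arrays and differed by 0.46 (SE 0.29).

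**Figure D2:**
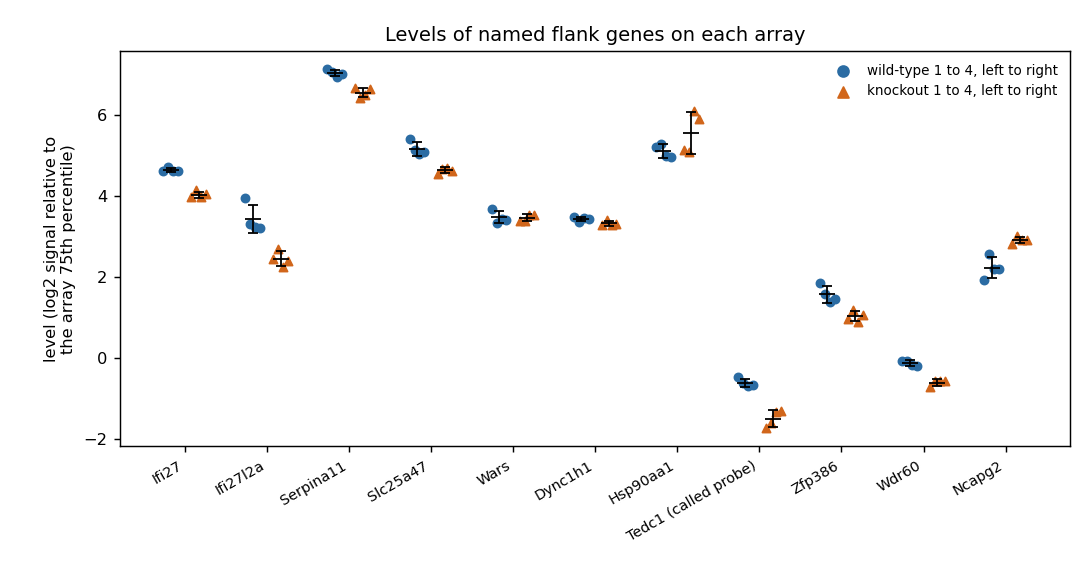
Levels of 11 named flank genes on each array, in log2 signal relative to the array's 75th percentile. Blue circles are the wild-type and orange triangles the knockout arrays, with mean and SD as black bars. Ifi27, Ifi27l2a, Serpina11, Slc25a47, Tedc1 (the called probe, not its brightest), Zfp386 and Wdr60 have every knockout value below every wild-type value, Ncapg2 the reverse, and Wars, Dync1h1 and Hsp90aa1 overlap.

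The array also holds probes for long intergenic RNAs, which are named by an mm9 interval and a strand. Of the flank probes kept, 48 are of this kind, and 34 of them lie within 2 Mb of the Mirg interval. Over the 48, the median difference was 0.04, 2 (4.17%) had an unadjusted p under 0.05, against 12.7% of all probes, and none was called. Over the 34, the median difference was 0.10, and 24 (70.6%) had a higher mean in the knockouts, against 57.6% of all probes. Of the 34, 2 (5.88%) had an unadjusted p under 0.05. The interval chr12:110003268-110030953 on the Dlk1 side is covered on both strands, by 2 forward and 8 reverse probes. The brightest probe of each strand is shown, with the 28 bases in capitals that are each other's reverse complement, since these probes read opposite strands of the same bases.
Forward-strand probe, chr12:110030697-110030756: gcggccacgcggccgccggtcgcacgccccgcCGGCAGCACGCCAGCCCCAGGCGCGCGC
Reverse-strand probe, chr12:110030729-110030788: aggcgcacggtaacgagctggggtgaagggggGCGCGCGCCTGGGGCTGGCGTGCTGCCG
The forward-strand probe differed by 0.13 and the reverse-strand probe by -0.02. Over the 8 reverse probes the differences ran from -0.09 to 0.38, and 1 of them had an unadjusted p under 0.05. That probe was at -3.63, -3.45, -3.74 and -3.77 in the wild-type arrays and at -3.34, -3.35, -3.24 and -3.12 in the knockout arrays, with no overlap and an adjusted p of 0.175 by limma.

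The size of the differences did not fall with distance from the deletion on either side. On the Dlk1 side the median size, without sign, was 0.13 under 1 Mb (24 probes), 0.12 from 1 to 2 Mb (22 probes), 0.19 from 2 to 4 Mb (5 probes only) and 0.15 over 4 Mb (61 probes). On the Dio3 side it was 0.10 (15 probes), 0.13 (40 probes), 0.17 (62 probes) and 0.31 (55 probes) in the same bins. The probes with an unadjusted p under 0.05 numbered 4, 1, 0 and 11 on the Dlk1 side and 0, 2, 12 and 21 on the Dio3 side. As shares of a bin, these were 16.7%, 4.5%, 0% and 18.0%, and 0%, 5%, 19.4% and 38.2%, against 12.7% of all probes. In the last Dio3-side bin, 17 probes lay outside the immunoglobulin interval described below, and 5 of them had such a p. Without replicate 4 of each group, the probes with such a p numbered 4, 1, 0 and 8, and 1, 1, 8 and 22, where 7.08% of all probes had one.

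Spearman's rank correlation of size with distance was 0.06 over the 112 probes of the Dlk1 side and 0.35 over the 172 of the Dio3 side. Size also went with level on the Dio3 side, at -0.40. The points share their arrays, neighbouring probes often share a gene, and the correlations are a description. Without the immunoglobulin interval the Dio3-side correlation of size with distance was 0.28 (120 probes). The signed median stayed between -0.05 and 0.19 in all 8 bins. With sign, the correlation of difference with distance was -0.23 on the Dlk1 side and -0.003 on the Dio3 side. Without the immunoglobulin interval the latter was -0.28. On the Dlk1 side, 58.3% of probes under 1 Mb and 32.8% over 4 Mb had a higher mean in the knockouts. On the Dio3 side both shares were 60%, and 23.5% over 4 Mb without that interval. The share of all probes was 57.6%, and these values too are a description.

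**Figure D3:**
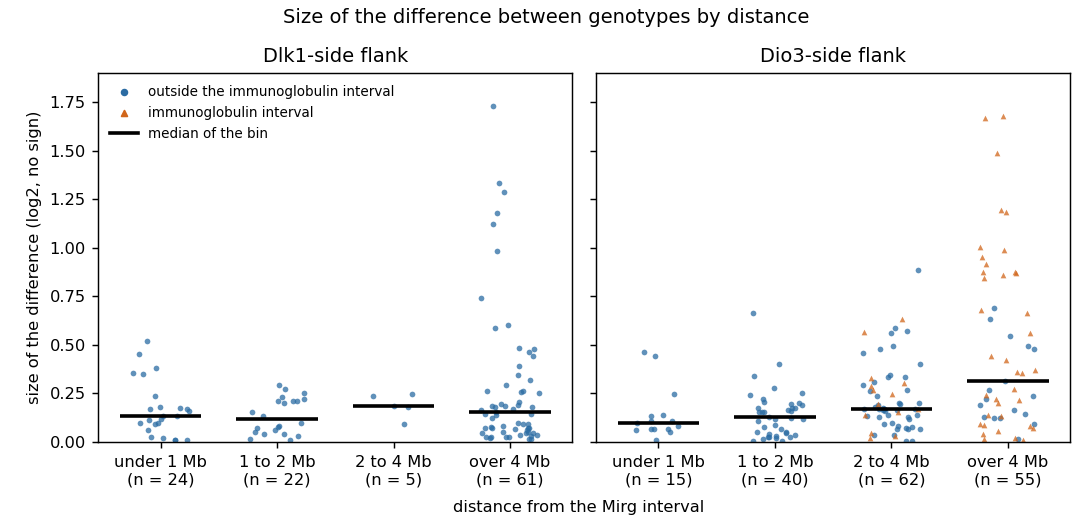
Size of the difference between genotypes, without sign and in log2, of the kept flank probes in 4 bins of distance from the Mirg interval on each side. Points are probes, orange triangles those of the immunoglobulin interval, and black lines the bin medians. The medians run from 0.10 to 0.31, and the highest is that of the Dio3-side bin over 4 Mb.

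The serpin genes lie 5.33 to 6.12 Mb from the Mirg interval on the Dlk1 side, and 20 of the 25 listed were measured. Their median difference was -0.08, with 15 lower and 5 higher in mean, next to 0.03 over 23526 names of the whole array with 1 probe each. None was called, and 6 had an unadjusted p under 0.05, 5 of them lower, where 12.8% of the names of the whole array had such a p. Serpina1a, Serpina1c, Serpina1d and Serpina1e, which encode forms of alpha-1-antitrypsin, were the brightest genes of the flank. Their differences ran from -0.09 to -0.02. Serpina1a, for example, was at 9.60 ± 0.11 and 9.57 ± 0.03 (SD, n = 4 each). These genes are near-identical copies, and a probe may read more than 1 of them.

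Other serpins varied far more between arrays. Serpina3c was at 4.28, 2.23, 1.87 and 2.28 in the wild-type arrays and at 0.66, 1.04, 0.94 and 1.10 in the knockout arrays. All knockout values were below all wild-type values, and wild-type 1 was the highest by a wide margin. The difference was -1.73 (SE 0.47, limma adjusted p = 0.207). Without wild-type 1 it was -1.19, with an adjusted p of 0.0269. Serpina3m differed by -1.28 (SE 0.46), again with wild-type 1 highest at 6.96 and the other wild-type values from 4.70 to 5.17. Serpina3c, Serpina3i and Serpina3m are members of a multigene family, so the assignment of their signal to a gene is uncertain.

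Serpina6, the corticosteroid-binding globulin that carries glucocorticoids in blood, was at -0.65, 1.58, 2.16 and 1.88 in the wild-type arrays and at 2.44, 2.39, 2.46 and 2.39 in the knockout arrays. The knockout values were all higher and nearly equal, and wild-type 1 was far below the others. The difference was 1.18 (SE 0.54, adjusted p = 0.417), and the other probe of the gene gave 1.12. Serpina5, the protein C inhibitor, differed by -0.59 (SE 0.17, adjusted p = 0.236), and Serpina10, the protein Z-dependent protease inhibitor, by -0.26 (SE 0.12, adjusted p = 0.401) at its brightest probe. Serpina3i gave 1.33 at one probe and -0.26 at the other.

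Serpina11 was measured by 2 probes that start 3 bases apart and whose letters differ at 4 of the 57 positions they have in common. The brighter probe was at 7.12, 7.07, 6.94 and 7.00 in the wild-type arrays and at 6.65, 6.43, 6.49 and 6.63 in the knockout arrays. Its groups did not overlap, and its difference was -0.48 (SE 0.08, limma adjusted p = 0.0753). The other probe was at 6.08, 6.02, 5.89 and 5.83 in the wild-type arrays and at 5.61, 6.57, 5.58 and 5.91 in the knockout arrays, a difference of -0.04 (SE 0.21) with overlapping groups.

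**Figure D4:**
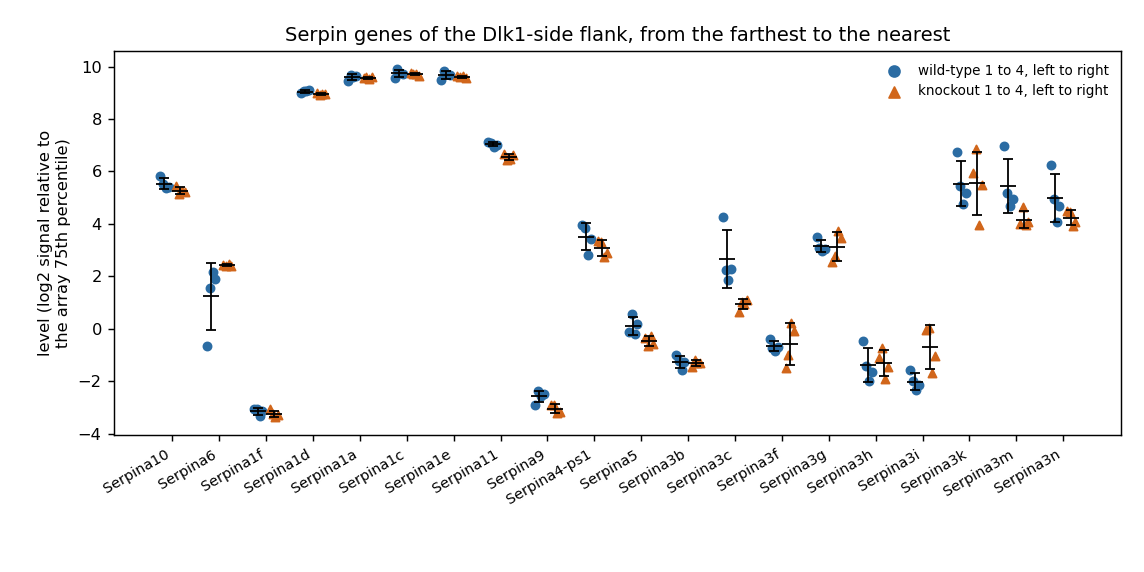
Levels of the 20 measured serpin genes on each array, in log2 signal relative to the array's 75th percentile, from the gene farthest from the Mirg interval to the nearest. Blue circles are the wild-type and orange triangles the knockout arrays, with mean and SD as black bars. The alpha-1-antitrypsin genes near 9 to 10 have nearly equal groups, and wild-type 1 stands apart for Serpina6, Serpina3c and Serpina3m.

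Beyond the serpins on the Dlk1 side, Ifi27 fell. Ifi27 is an interferon-inducible gene of a small family with Ifi27l2a and Ifi27l2b, and its product is found in mitochondria. It was at 4.62, 4.71, 4.60 and 4.61 in the wild-type arrays and at 3.97, 4.13, 3.97 and 4.04 in the knockout arrays. The groups stood well apart, and the difference was -0.60 (SE 0.07, limma adjusted p = 0.016). The probe lies 6.30 Mb from the Mirg interval, at chr12:104678353-104678412 of mm9. The call was lost without wild-type 2, 3 or 4 or knockout 1, 3 or 4 (adjusted p from 0.0642 to 0.091), and without replicate 4 of each group the adjusted p was 0.332 at a difference of -0.62.

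Ifi27l2a, next to it, was at 3.95, 3.31, 3.24 and 3.22 in the wild-type arrays and at 2.45, 2.69, 2.24 and 2.40 in the knockout arrays. The groups did not overlap, and wild-type 1 was the highest array. The difference was -0.98 (SE 0.18), with an adjusted p of 0.0859 by limma. Without wild-type 1 it was -0.81 (adjusted p = 0.0455). Ifi27l2b differed by -0.17 (SE 0.16), with overlapping groups.

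The other lists are read against the 12.8% of all names with an unadjusted p under 0.05. Of 17 measured signalling genes, each read at its brightest probe, 13 had a higher mean in the knockouts. None had an unadjusted p under 0.05 at that probe, and the median difference was 0.10. They include Akt1, a kinase of insulin and growth factor signalling, at -0.12 (SE 0.08), Traf3, an adaptor of tumour necrosis factor receptor signalling, at 0.01 (SE 0.13), and Jag2, a Notch ligand, at 0.58 (SE 0.33). Klc1, also listed under cytoskeleton and transport, differed by -0.14 (SE 0.07) at its brightest probe, which is the one counted. Its other kept probe went the opposite way, at 0.40, and placed it among the genes with the smallest p. Of 10 genes listed under RNA processing and translation, only Glrx5 had an unadjusted p under 0.05, at 0.20. Glrx5 is a mitochondrial glutaredoxin of iron-sulphur cluster assembly, so it says nothing about the theme of that list. Dicer1, which cuts microRNA precursors, was at 0.99 ± 0.14 and 0.81 ± 0.11 (SD, n = 4 each), a difference of -0.18 (SE 0.10).

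Of 13 genes listed under chromatin and transcription, 3 had an unadjusted p under 0.05, all higher: Ncapg2, Cdca4 and Glrx5. Glrx5 is held by 2 lists, and its role falls under neither. Of 19 listed under cytoskeleton and transport, 3 were lower by that measure, Slc25a47, Slc25a29 and Wdr60. Setd3 differed by -0.01 (SE 0.08), Evl by -0.21 (SE 0.09), Papola by 0.18 (SE 0.10) and Vrk1 by 0.24 (SE 0.11). Eif5, Ckb and Crip1 on the Dio3 side differed by 0.05, -0.03 and -0.13. The brightest genes of the Dio3 side were Rps19-ps4 at 0.05, Coa8 at -0.02, Cep170b at -0.27 and Atp5mpl at 0.09, and none of them passed the test. The lists were drawn up with earlier results of these arrays known.

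Tedc1, which encodes a protein of a complex at centrioles, fell at 1 of its 2 probes. The array files place that probe at chr12:114403609-114403668 of mm9, 3.42 Mb from the Mirg interval, and give the gene by an older RIKEN name. The probe was at -0.48, -0.62, -0.69 and -0.68 in the wild-type arrays and at -1.74, -1.61, -1.34 and -1.32 in the knockout arrays. The groups did not overlap, and the difference was -0.88 (SE 0.11, limma adjusted p = 0.0276). The other probe starts 29 bases upstream and shares 31 of its 60 bases. It was at 0.98, 1.03, 0.94 and 0.78 in the wild-type arrays and at 0.66, 0.84, 0.87 and 0.82 in the knockout arrays, a difference of -0.14 (SE 0.08, adjusted p = 0.524).

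So 2 probes on the same end of the same transcript gave different sizes of change, and their groups overlapped in 1 case only. Whether the probes differed from each other in their response was not tested. The Tedc1 call was lost when any array other than wild-type 1 was left out (adjusted p from 0.0528 to 0.0929), and without replicate 4 of each group it stood at 0.198 with a difference of -0.97.

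The immunoglobulin heavy-chain interval, from position 114496985 to 117247905, runs from the first to the last flank probe annotated as heavy chain and was marked out after its values had been seen. It holds 154 flank probes, of which 52 were kept, 35 of them above background on all 8 arrays. Of the 52, 18 had an unadjusted p under 0.05, 17 higher and 1 lower in the knockouts, and for 15 the groups did not overlap, 14 of them higher. Over all probes these shares were 12.7% and 8.57%. The median difference was 0.18. Since the interval was picked for these values, the counts are a description. Probes that passed the filter only through the knockouts or only through the wild-types had to differ, and there was 1 of each, ENSMUST00000103547 and ENSMUST00000103523.

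The higher values lay towards the far end, among the variable segments. From ENSMUST00000109711 outward (4.72 Mb from the Mirg interval), 32 probes had a median difference of 0.40 and 14 were higher at an unadjusted p under 0.05. The 20 probes nearer the domain, which hold the constant regions, had a median difference of 0.09, with 3 higher at that p. Over all probes, 6.95% were higher at that p. The cut was placed after the values were seen, at a probe that itself differed by 0.99, so this contrast is a description. The median level of the 52 probes was -4.50, -4.28, -4.09 and -4.25 in wild-type 1 to 4 and -3.70, -3.82, -3.88 and -3.97 in knockout 1 to 4. All knockout arrays were above all wild-type arrays, in an interval picked for such values. Among the 35 probes above background on every array, the medians ran from -4.17 to -3.46 in the wild-types and from -3.40 to -3.18 in the knockouts, again without overlap.

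The constant mu region, at the near end, had a lower mean in the knockouts. The probe of immunoglobulin heavy constant mu, the heavy chain of IgM and the first to be made by a developing B lymphocyte, was at 1.18, 1.68, 2.11 and 1.89 in the wild-type arrays and at 1.50, 1.47, 1.47 and 1.43 in the knockout arrays. The groups overlapped, and the difference was -0.25 (SE 0.18, limma adjusted p = 0.58). The B lymphocyte markers, 11 of 13 of which had a lower mean in the knockouts, are given above. Their part in the differences of the variable segments was not tested.

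ENSMUST00000103547 rose. It was at -6.26, -5.91, -5.43 and -5.68 in the wild-type arrays, none of them well above background, and at -4.48, -4.04, -4.23 and -3.86 in the knockout arrays. It passed the filter only through the knockouts, which fixed its direction, and the limma adjusted p of 0.016 describes a probe chosen in that way. Because the wild-type arrays give only a bound, the knockout signal was at least 2.43-fold higher, where the bound takes for each wild-type array the higher of the probe's own signal and the lowest signal called well above background. ENSMUST00000103550, which shares a run of 34 bases with it, was at -5.20, -4.71, -4.45 and -4.33 in the wild-type arrays and at -3.39, -3.61, -3.71 and -3.25 in the knockout arrays. Its groups did not overlap, and its difference was 1.18 (SE 0.19, adjusted p = 0.0694).

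ENSMUST00000103523 fell. It was at -4.92, -4.84, -5.06 and -4.99 in the wild-type arrays and at -6.02, -5.96, -5.67 and -5.96 in the knockout arrays, none of the latter well above background. It passed the filter only through the wild-types, so the same holds for its limma adjusted p of 0.00855. The wild-type signal was at least 1.42-fold higher by the same bound. ENSMUST00000170551, which shares the 20 capital bases printed above, was at -3.88, -3.75, -3.18 and -3.34 in the wild-type arrays and at -2.47, -2.57, -2.66 and -2.80 in the knockout arrays. Its difference was 0.92 (SE 0.16, adjusted p = 0.0846), opposite in sign.

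The pair ENSMUST00000103537 and ENSMUST00000103515 were both higher in every knockout than in any wild-type array. The former was at -5.77, -5.03, -5.19 and -4.35 in the wild-type arrays and at -3.24, -3.47, -3.66 and -3.25 in the knockout arrays. Its difference of 1.68 (SE 0.27, limma adjusted p = 0.0667) was the largest positive difference among the kept flank probes. The latter differed by 1.49 (SE 0.24, adjusted p = 0.0667). Each was well above background on 2 wild-type and 4 knockout arrays, so the sizes rest in part on signals near background.

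The 2 calls in the interval depended on which arrays were used. ENSMUST00000103547 was not called without wild-type 2 or 4 or knockout 2, 3 or 4 (adjusted p from 0.0503 to 0.0748), and ENSMUST00000103523 was not called without knockout 4 (0.0513). Without replicate 4 of each group both had an adjusted p of 0.198. In that fit 20 of the 52 probes had an unadjusted p under 0.05, where 7.08% of all probes had one. With normexp background correction and quantile normalization, which raises low signals, their measured differences were 0.39 and -0.20, against 1.67 and -0.95 in the values above.

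**Figure D5:**
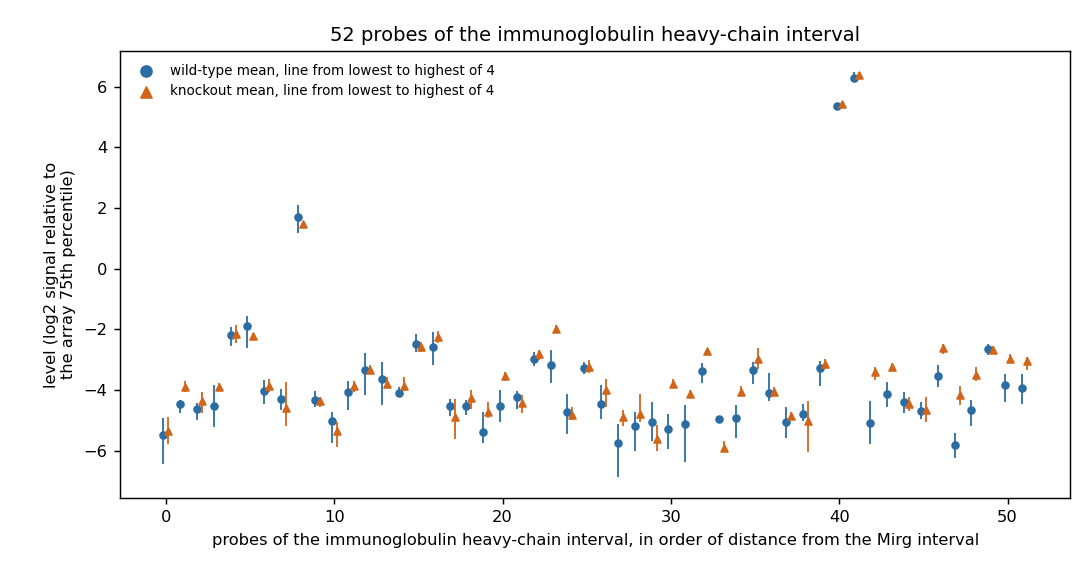
Levels of the 52 kept probes of the immunoglobulin interval, in log2 signal relative to the array's 75th percentile, ordered by distance from the Mirg interval. Symbols are group means, and lines run from the lowest to the highest of the 4 arrays of a group. From about probe 22 on, many knockout means (orange triangles) lie above the wild-type range, and most levels lie below -2.

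Beyond the immunoglobulin interval, 17 kept probes lie between 6.31 and 6.97 Mb from the Mirg interval, and 5 of them had groups that did not overlap, 4 lower and 1 higher in the knockouts, where 8.57% of all probes had such groups (3.8% lower, 4.78% higher). Zfp386, a zinc finger protein, was at 1.85, 1.58, 1.38 and 1.46 in the wild-type arrays and at 0.97, 1.17, 0.89 and 1.07 in the knockout arrays at its brightest probe. That difference was -0.55 (SE 0.12, limma adjusted p = 0.127), and its other probes gave -0.63 and -0.27. Wdr60, a component of the dynein that moves cargo in cilia, was at -0.07, -0.08, -0.17 and -0.20 in the wild-type arrays and at -0.72, -0.56, -0.57 and -0.58 in the knockout arrays. Its difference of -0.48 (SE 0.07) had an adjusted p of 0.0577, the lowest among the flank probes that were not called.

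Ncapg2, a subunit of condensin II, which compacts chromosomes, was the exception in direction. It was at 1.93, 2.56, 2.19 and 2.20 in the wild-type arrays and at 2.81, 3.00, 2.92 and 2.91 in the knockout arrays. Every knockout value was above every wild-type value, and the difference was 0.69 (SE 0.13, limma adjusted p = 0.0915). The probe 2310058N22Rik was at 0.66 ± 0.20 and 0.17 ± 0.04 (SD, n = 4 each), a difference of -0.49 (SE 0.10, adjusted p = 0.125). Without replicate 4 of each group, the adjusted p-values of these genes ran from 0.47 to 0.607.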

How the data were processed

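Total RNA was labelled with Cy3 and hybridised to 1 array per sample, and the authors deposited spot intensities; the submitters' processing notes name Agilent Feature Extraction 10.10. A table of log2 values of the same arrays, also deposited, was used as an alternative; its normalization is not given in the sources used here, each column had a median between 8.84 and 8.86, and each followed its own array with r from 0.9949 to 0.9963 over 27084 probes. Coordinates are mm9, per the file headers, and RefSeq symbols came from a table of assembly GRCm38.p6, used for names only.

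Spots with an outlier flag were removed, and the remaining spots of each probe were averaged. The 75th percentile of log2 processed signal over non-control probes was subtracted on each array. A probe was kept if well above background on at least 4 arrays, and 3 flank probes without a value on some array were not tested. Limma 3.58.1 (lmFit, eBayes; R 4.3.3) was fitted to all 33752 kept probes, two-sided, without covariates. The code was tested on simulated data. The replicates are separate pups per the labels.

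Genes named were those called, the 10 with the smallest p, the 5 nearest and the 4 brightest on each side, and a fixed set; Bcl11b, Serpina1b and Ighm of that set were not kept under these names. A gene is given by its brightest kept probe unless stated. Other probes and genes in the text were chosen after their values were seen. The members, lists and rules were chosen with earlier results of these data known. Same-numbered arrays of the groups did not deviate together (r from -0.10 to 0.05), so no block was used.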

Additional observations from a re-analysis of the deposited data

Results flagged for a closer look

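Among 100 groups of 4 values checked, 8 held a sample whose gap to the nearest other exceeded Dixon's 95% critical share of the group's range, and chance gives such a gap in about 1 of 20 groups. Wild-type 1 was the sample in 5 of them. It was at 3.95 for Ifi27l2a (others from 3.22 to 3.31), at 4.28 for Serpina3c (others from 1.87 to 2.28) and at 3.57 for Evl (others from 3.25 to 3.28). Its median deviation was -0.0413 over the Dio3-side flank (others from 0.0116 to 0.0187) and -0.19 over the Mirg interval (others from 0.05 to 0.08). Knockout 2 was at 3.41 for Dync1h1 (others from 3.29 to 3.31) and at 0.97 for Dicer1 (others from 0.74 to 0.76). Knockout 1 was at -0.72 for Wdr60 (others from -0.58 to -0.56).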

How the results depend on the processing

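The counts of called flank probes varied with the processing, and the medians near 0 changed little. Against 3 lower and 1 higher, the fits called 5 and 8 with normexp and quantile normalization, 5 and 4 with quantile normalization alone, 6 and 6 in the deposited log2 table, and 6 and 7 with a trended, robust variance. The calls over all probes also moved, to 178, 78, 163 and 188 in that order, against 73 with the processing used above. Median centring called 5 higher, the filter on all 8 arrays 0 higher, and no filter 1 lower and 0 higher. In these fits 92, 70 and 33 of all probes were called. Without wild-type 3 and 4 the counts were 0 and 2, without knockout 3 and 4 there were 0 higher, and with the replicate number as a block (replicate block) 0 lower. Here 20, 25 and 25 of all probes were called. At an adjusted p under 0.10 they were 7 and 8, at 0.01 they were 1 and 0, and without the immunoglobulin interval 0 were higher. Leaving arrays out gave 0 to 6 lower and 0 to 3 higher, with 0 and 0 without replicate 4 and the highest counts without wild-type 1. Of all probes, 11 were called without replicate 4 and 96 without wild-type 1. Over 21 alternative fits, the share of flank probes at an unadjusted p under 0.05 ran from 13.3% to 23.9% and was above that of all probes in each.

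The median difference of the Dio3 side was 0.0134 without the immunoglobulin interval. The median difference within 1 Mb, Dlk1 side, was 0.0051 with normexp, and -0.000791 within 2 Mb. The median difference within 1 Mb, Dio3 side, was -0.000251 with normexp, -0.0268 without wild-type 3 and 4, and from 0.000814 to 0.0729 with 1 array left out. The Mirg interval stood at -0.60 with normexp, -1.34 in the deposited table, -2.05 with the filter on all 8 arrays and -1.49 without wild-type 3 and 4. Low signal and the number of arrays both limit the immunoglobulin probes. No named gene that was called changed its sign in these fits. The alternative without the immunoglobulin interval was chosen after seeing the data.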
